A study of Mus musculus with 14 samples.

Results

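The heat shock proteins and DnaJ chaperones are the genes whose symbol begins with Hspa, Hspb, Hspd, Hspe, Hsph, Hsp90 or Dnaj, and they numbered 68 of the 19057 genes with a symbol on the array. They were measured by 135 of 45281 probes, and each gene was read through 1 probe, that with the highest mean over 14 arrays. Gene expression was measured on Illumina mouse arrays in GFP+CD11b+ myeloid cells sorted by FACS. The mice were C57Bl/6J of 14 weeks and carried bone marrow from GFP-tagged donors after irradiation, so the sorted cells were progeny of the donor marrow. Untagged PyMT or EO771 cells, which are murine breast cancer lines, had been implanted intracranially, and the lesion that grew is called BrM (brain metastasis).

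The arrays comprised 4 PyMT BrM, 2 EO771 BrM, 3 spleens and 1 bone marrow of PyMT tumor-bearing mice, with 2 spleens and 2 bone marrows from naïve mice, which had no tumor and stood in for controls of the EO771 model. The model, whether the control mice bore a tumor, and their handling cannot be told apart. Likewise, growth in tumor tissue and the release of cells from a solid tissue cannot be told apart, and how the tissues were dissociated is not given in the sources used here. EO771 BrM 2 carries a code with 2 numbers, and both naïve bone marrow codes share a stem with naïve spleen 1. Most PyMT BrM arrays share a mouse code with a PyMT spleen, and for code P1 also with the PyMT bone marrow. Separate animals are therefore not stated for all arrays. The main fits treat the arrays as independent, and p-values measure the spread between these samples.

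Heat shock proteins are chaperones that keep other proteins folded. Hsp70 proteins (the Hspa genes) bind unfolded stretches in a cycle driven by ATP, the J-domain proteins (the Dnaj genes) deliver clients and trigger ATP hydrolysis, Hsp90 proteins act late on kinases and receptors, and small heat shock proteins (the Hspb genes) hold unfolded proteins without ATP. Some members are present in every cell at all times, whereas others are switched on within minutes by the heat shock factor Hsf1, which binds alternating GAA and TTC units called heat shock elements. The endoplasmic reticulum (ER) and the mitochondria have chaperones of their own, and those of the ER answer to the unfolded protein response. Stress during tissue dissociation is known to induce the heat-inducible members together with immediate-early genes such as Fos.

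In BrM, the heat-inducible Hsp70 genes Hspa1a and Hspa1b and the small heat shock protein Hspb1 were higher than in spleen/bone marrow, by 13.2-fold, 7.45-fold and 2.94-fold. The control means of these genes (4.61, 3.27 and 4.10 on the log2 scale) lay near or below the array median of 4.06, close to background, so the sizes of the folds are uncertain. Further probes of these genes gave smaller differences. Dnajb1, the main J-domain partner of inducible Hsp70 and itself heat-inducible, was not called and had a log2 difference of -0.20. No member classed here as an ER chaperone was called in this pooled comparison. Among members classed as constitutive cytosolic or nuclear chaperones, the median difference was below 0. The classes come from a list set by hand and may not place every member in its compartment. Outside the heat-inducible class, 4 members were higher (Dnajc12, Dnajc18, Dnajc24 and Hspbp1) and 2 were lower (Dnajc6 and Dnajc28). Together, 7 of 68 members were higher and 2 lower by limma's test (called at an adjusted p below 0.01), 10.3% and 2.94% of the members, beside 4.89% higher and 4.13% lower among all 19057 genes. The methods' t-test, adjusted over all probes, called 7 members, among them 6 of these 9, and did not call Dnajc6, Dnajc28 and Hspbp1 (adjusted p = 0.0113, 0.0135 and 0.0108).

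The promoters of the heat-inducible genes that were highest in BrM are shown because they carry the units to which heat shock factors bind. They are the 250 bases before the start of transcription as given by RefSeq on GRCm38.p6, read 5′ to 3′ on the gene's strand. Capitals mark each pair of units, GAANNTTC or TTCNNGAA, searched on both strands. Hspa1a lies at chr17:34972157-34972406 on the minus strand, Hspa1b at chr17:34959239-34959488 on the minus strand, Hspb1 at chr5:135887669-135887918 on the plus strand, and the more upstream of both Hsph1 starts at chr5:149636337-149636586 on the minus strand.
Hspa1a: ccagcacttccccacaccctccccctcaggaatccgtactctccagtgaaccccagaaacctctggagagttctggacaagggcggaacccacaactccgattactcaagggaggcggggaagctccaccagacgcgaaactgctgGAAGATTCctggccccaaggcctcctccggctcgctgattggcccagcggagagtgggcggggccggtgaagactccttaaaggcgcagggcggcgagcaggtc
Hspa1b: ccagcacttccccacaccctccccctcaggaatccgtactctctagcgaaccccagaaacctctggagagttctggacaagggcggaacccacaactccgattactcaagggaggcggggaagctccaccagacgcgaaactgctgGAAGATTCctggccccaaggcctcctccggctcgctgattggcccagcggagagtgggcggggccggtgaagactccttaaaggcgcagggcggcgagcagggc
Hspb1: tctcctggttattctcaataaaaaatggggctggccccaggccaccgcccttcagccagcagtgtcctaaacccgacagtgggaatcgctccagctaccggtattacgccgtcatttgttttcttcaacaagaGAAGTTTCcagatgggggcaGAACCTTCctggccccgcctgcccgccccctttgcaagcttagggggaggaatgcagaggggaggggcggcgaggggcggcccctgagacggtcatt
Hsph1: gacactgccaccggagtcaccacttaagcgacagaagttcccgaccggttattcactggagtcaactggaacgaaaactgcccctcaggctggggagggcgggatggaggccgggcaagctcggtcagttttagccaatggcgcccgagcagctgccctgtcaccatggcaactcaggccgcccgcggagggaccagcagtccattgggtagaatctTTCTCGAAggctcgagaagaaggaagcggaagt

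The Hspa1a and Hspa1b promoters differed at 3 of 250 positions, and in both the pair GAAGATTC ended 97 bases before the start. The Hspb1 promoter held 2 pairs, GAAGTTTC and GAACCTTC. Of the 68 members, 56 had a promoter in the table, among them 7 of the 8 heat-inducible genes. A pair was present in 6 of those 7 (Dnajb1 had none in this window), in 23.2% of the 56 members and in 14.5% of all 27025 genes with a promoter. The longer form of 3 alternating units, each 2 bases apart, which contains such pairs, was found in 0 of the 7, and in 3 of the 56 members, against 0.514% of all genes. These 3 were Dnajb6 and the mitochondrial chaperonin genes Hspd1 and Hspe1, which are transcribed away from each other. On the plus strand, at chr1:55088059-55088076, they share the run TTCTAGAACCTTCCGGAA, in which 4 units alternate. A match of letters is a description of the sequence and was not tested for binding.

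Hspa1a, the stress-inducible Hsp70, gave log2 signals of 10.62, 8.87, 7.72 and 6.52 in PyMT BrM and 8.40 and 7.85 in EO771 BrM. The controls gave 5.77, 4.16 and 6.13 in PyMT spleen, 3.66 in PyMT bone marrow, 4.59 and 5.40 in naïve spleen, and 4.07 and 3.08 in naïve bone marrow. All 6 BrM arrays were above all 8 controls and the PyMT BrM arrays themselves ranged widely. The mean was 8.33 ± 1.37 in BrM and 4.61 ± 1.07 in spleen/bone marrow (SD, n = 6 and 8), a log2 difference of 3.72 (SE 0.57, adjusted p = 0.000339). Non-overlap of this kind, with all BrM above, was found for 9 of 68 members and for 4.25% of all genes.

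Hspa1b encodes an almost identical Hsp70, and RNA of either gene could reach probes of the other. Its log2 signals were 8.35, 6.22, 6.25 and 5.01 in PyMT BrM and 5.92 and 5.25 in EO771 BrM. In the controls they were 2.35, 3.65 and 4.00 in PyMT spleen, 2.80 in PyMT bone marrow, 3.83 and 4.31 in naïve spleen, and 2.33 and 2.87 in naïve bone marrow. Again no control reached the lowest BrM, and PyMT BrM 1 was the highest and PyMT BrM 4 the lowest BrM array for both genes. The difference was 2.90 (SE 0.47, adjusted p = 0.000498). Both further probes of Hspa1a were also higher, by 2.67 and 1.23 (adjusted p = 0.00109 and 0.00786), whereas a dim probe of Hspa1b had 0.76 (adjusted p = 0.286).

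Hspb1, a small heat shock protein that also binds actin filaments, varied less among BrM. It gave 5.71, 5.70, 4.89 and 6.18 in PyMT BrM and 5.95 and 5.53 in EO771 BrM. The controls lay between 3.23 and 4.49, below every BrM array. The difference was 1.56 (SE 0.23, adjusted p = 0.000275), and a dim second probe had 0.99 (adjusted p = 0.178).

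The other heat-inducible genes were not called. Hsph1, an Hsp110 that exchanges the nucleotide on Hsp70, had 7.34, 7.03, 7.95 and 7.70 in PyMT BrM and 7.55 and 7.64 in EO771 BrM. Spleens overlapped with BrM, with 5.65, 5.27 and 7.61 in PyMT spleen and 7.17 and 7.30 in naïve spleen, whereas bone marrow did not, with 5.83 in the PyMT sample and 5.67 and 5.55 in the naïve samples. Its difference was 1.28 (SE 0.37, adjusted p = 0.0295), and it was called without PyMT spleen 3 (adjusted p = 0.00714) and against bone marrow alone (1.85, adjusted p = 3.27e-04).

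Dnajb1 gave 10.41, 9.69, 10.05 and 9.78 in PyMT BrM and 9.91 and 9.84 in EO771 BrM. In the controls it gave 9.77, 10.67 and 10.20 in PyMT spleen, 10.43 in PyMT bone marrow, 9.94 and 9.80 in naïve spleen, and 10.16 and 10.19 in naïve bone marrow. Both groups overlapped over most of this range (difference -0.20, SE 0.18, adjusted p = 0.600). Dnajb4, a further J-domain protein, had 0.34 (SE 0.18, adjusted p = 0.304), Dnaja1, which farnesylation anchors to membranes, 0.04 (SE 0.29, adjusted p = 0.955), and Hsp90aa1, the inducible Hsp90, 0.37 (SE 0.45, adjusted p = 0.715). Dnaja1 and Dnajb4 had means over 14 arrays of 3.59 and 4.00, below the array median of 4.06, so changes in them could be missed. Dimmer probes of Dnajb4, Dnaja1 and Hsp90aa1 had the opposite sign, none of them called. In this class of 8, 3 were higher and 0 lower, beside 4.89% and 4.13% of all genes. The median difference was 0.82, beside -0.01 over all genes.

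**Figure D1:**
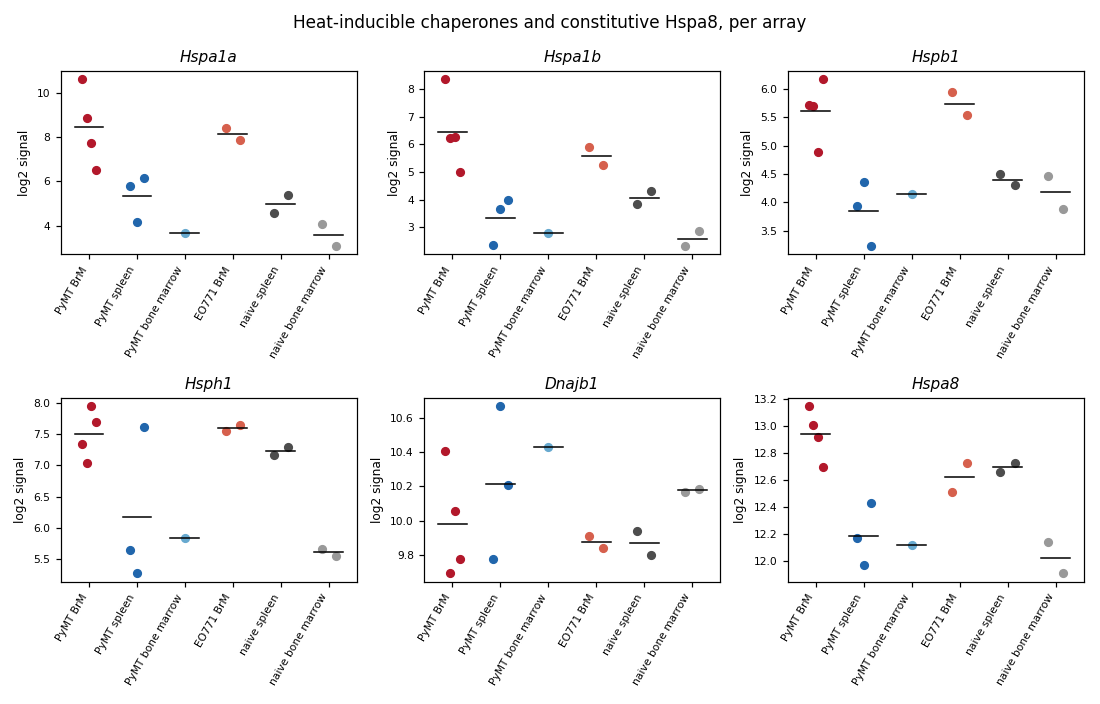
Log2 signal of 5 heat-inducible genes and of constitutive Hspa8 in each array (y axis) by condition (x axis), with points for arrays and lines for condition means. Hspa1a, Hspa1b and Hspb1 were higher in all 6 BrM arrays than in all 8 controls, Hsph1 and Hspa8 overlapped with spleens, and Dnajb1 overlapped throughout.

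The heat-inducible class averaged 7.01, 6.36, 6.17 and 5.96 in PyMT BrM and 6.61 and 6.44 in EO771 BrM, against 4.92 to 5.27 in PyMT spleen, 4.83 in PyMT bone marrow, 5.56 and 5.62 in naïve spleen, and 5.19 and 5.01 in naïve bone marrow. Every BrM array was above every control, in a mean that includes the 3 called genes. Only these 3 of the 8 genes separated in this way by themselves, beside 4.25% of all genes. The mean therefore does not show that the whole class separated. A list of 22 immediate-early genes, which are transcribed within minutes of a stimulus and rise when tissue is dissociated, moved the same way. Of these, 10 were higher in BrM and 1 lower, beside 4.89% and 4.13% of all genes, with a median difference of 1.26. The largest rises were in the transcription factor genes Fosb (4.62, SE 0.49, adjusted p = 1.12e-05) and Egr1 (3.55, SE 0.45, adjusted p = 6.54e-05), and the fall was in Klf2, a further transcription factor gene (-1.94, SE 0.44, adjusted p = 0.00702). Its signals were 10.68 in PyMT BrM 1, 7.81, 7.66 and 7.77 in the other PyMT BrM, and 10.09 and 9.53 in EO771 BrM. The controls had 10.24 to 11.41, so PyMT BrM 1 lay within their range. Klf2 was no longer called without any 1 of 10 arrays, that is all but PyMT BrM 1, both EO771 BrM and the PyMT bone marrow (adjusted p from 0.0110 to 0.0213), nor by the methods' t-test or against spleen or bone marrow alone (adjusted p = 0.0225, 0.0263 and 0.154).

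The mean of the immediate-early list was 9.81 in PyMT BrM 1, the array with the highest Hspa1a, and 8.51, 8.21 and 8.42 in the other PyMT BrM, 9.64 and 9.30 in EO771 BrM, and 7.33 to 8.12 in the controls. Among the other BrM arrays the order differed. PyMT BrM 2 had a lower list mean than both EO771 BrM but higher Hspa1a (8.87 against 8.40 and 7.85). Cell composition differed as well. Of 13 neutrophil markers 12 were lower in BrM (list mean 6.49 to 9.08 in BrM and 11.3 to 12.6 in controls), and of 10 macrophage markers 6 were higher (11.41 to 11.95 in BrM and 8.45 to 10.6 in controls). Of 7 microglial markers 3 were higher (7.06 to 8.48 in BrM and 4.50 to 5.54 in controls), as were 2 of 5 monocyte and 2 of 6 epithelial markers. Of 5 erythroid markers 4 were lower (4.39 to 5.45 in BrM and 5.19 to 10.2 in controls), as were 2 of 4 B cell markers (3.67 to 4.72 in BrM and 5.44 to 8.36 in controls) and 1 of 5 T cell markers. Of 9 reference genes, 0 were called. The parts that dissociation, cell composition and the tumor itself had in the chaperone differences were not tested. In such sorted populations, fewer cells of a type and less RNA per cell cannot be told apart.

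**Figure D2:**
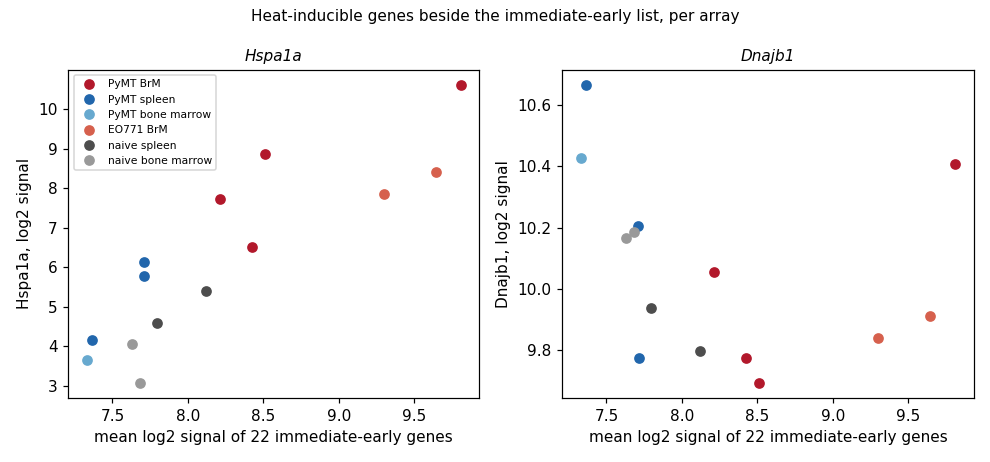
Log2 signal of Hspa1a (left) and Dnajb1 (right) in each array against the mean log2 signal of 22 immediate-early genes in the same array, with colours for the 6 conditions. BrM arrays lie at 8.21 to 9.81 on the x axis and controls at 7.33 to 8.12, and Hspa1a is above 6.5 in BrM only, whereas Dnajb1 overlaps between both.

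Among the partners of the heat shock response outside the family, Hsf2, a heat shock factor of development, had a difference of 0.10 (SE 0.26, adjusted p = 0.889). Of the 3 heat shock factors measured (Hsf2, Hsf4 and Hsf5), 0 were called by limma and 0 reached an unadjusted p under 0.05. Hsf1 was not analysed here. Of 30 cochaperones and other chaperones, 4 were higher and 0 were lower, beside 4.89% and 4.13% of all genes, and the median difference was 0.21. Bag3, a heat-inducible nucleotide exchange factor that links Hsp70 to autophagy, gave 10.01 to 10.52 in PyMT BrM and 10.53 and 10.74 in EO771 BrM, against 8.12 to 9.13 in the controls, with no overlap (1.85, SE 0.20, adjusted p = 1.43e-05). Serpinh1, the heat-inducible collagen chaperone Hsp47, gave 7.30 to 10.02 in BrM and 3.92 to 6.47 in the controls (4.29, SE 0.45, adjusted p = 1.09e-05). Of 8 subunits of the chaperonin CCT, which folds actin and tubulin, only Cct6a was called (0.93, SE 0.19, adjusted p = 0.0041), and it was no longer called without PyMT BrM 1, 2 or 3 (adjusted p = 0.0124, 0.0130 and 0.0129) or against spleen alone (0.78, adjusted p = 0.0472).

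Hspa8, the constitutive Hsp70 of the cytosol and the clathrin-uncoating ATPase, gave 13.14, 13.01, 12.92 and 12.70 in PyMT BrM and 12.51 and 12.73 in EO771 BrM. In the controls it gave 12.17, 11.97 and 12.42 in PyMT spleen, 12.11 in PyMT bone marrow, 12.66 and 12.73 in naïve spleen, and 12.14 and 11.91 in naïve bone marrow. PyMT BrM were above PyMT controls, whereas EO771 BrM overlapped with naïve spleen, and the pooled difference of 0.57 was not called (SE 0.18, adjusted p = 0.0466). The second probe of Hspa8 differed in its call, with 11.06 to 12.33 in BrM and 9.48 to 10.59 in controls (1.81, SE 0.24, adjusted p = 8.21e-05). The remaining probe of Hspa8 (0.47, SE 0.57, adjusted p = 0.711) had 7.63 to 7.74 in PyMT controls and 9.65 to 10.67 in naïve controls. Which transcripts these probes detect was not analysed.

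Of the 15 members classed as constitutive cytosolic or nuclear chaperones, 0 were called by limma in either direction. At an unadjusted p under 0.05, 2 were higher and 5 lower (14.5% and 12.8% of all genes). The methods' t-test called 1, Dnajc8, lower. With the mouse set (PyMT, or EO771 and naïve) as a block, Dnajc2 was called higher (1.14, adjusted p = 0.00733) and Dnajc8 lower (-0.54, adjusted p = 0.00919). The median difference was -0.22. Hspa4, an Hsp110 like Hsph1, had 0.22 (adjusted p = 0.553), and Dnajb6, which suppresses polyglutamine aggregation, had -0.50 (adjusted p = 0.0510). A second probe of Dnajb6 had 0.84 (adjusted p = 0.0188), so its direction depended on the probe. The member of this class nearest the threshold was Dnajc2, a ribosome-associated J-domain protein (1.25, SE 0.30, adjusted p = 0.0109), which was called without PyMT spleen 1 or 3 (adjusted p = 0.00560 and 0.00760).

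**Figure D3:**
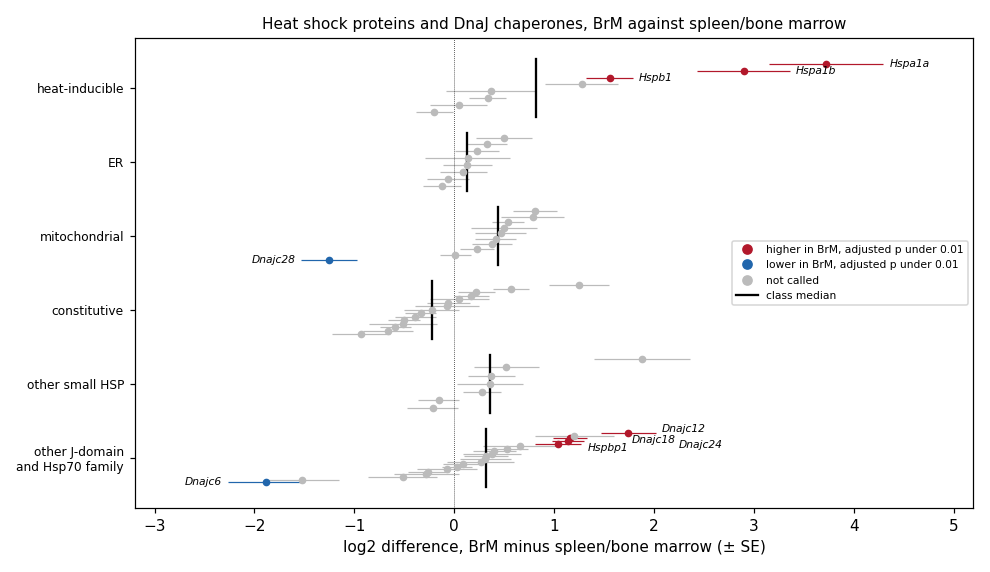
Log2 difference of BrM minus spleen/bone marrow (x axis, with standard error) for the 68 genes by class, ordered within each class, with red for genes called higher, blue for genes called lower, grey for those not called, and black lines for class medians. Called genes stand in the heat-inducible, mitochondrial and remaining classes, and the class medians run from -0.22 (constitutive) to 0.82 (heat-inducible).

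In the pooled comparison, 0 of the 8 members classed as chaperones of the ER were called. Hspa5 (BiP), the Hsp70 of the ER lumen, was dim, with 3.89 to 4.96 in BrM and 3.70 to 4.85 in controls (0.09, SE 0.24, adjusted p = 0.883). Hsp90b1 (Grp94), the Hsp90 of the ER, gave 10.66 to 11.37 in BrM and 10.12 to 11.92 in controls (0.13, SE 0.25, adjusted p = 0.828). Both groups overlapped for every gene of this class. Besides Hspa5, the genes Hspa13, Dnajc25 and Dnajc1 had low signals, with means over 14 arrays of 3.84, 4.37 and 4.88. The array median was 4.06, so changes in these genes could be missed. Dnajc3 (p58IPK), a cochaperone of BiP, had 0.50 (adjusted p = 0.330), and the other differences ran from -0.12 for the disulfide reductase Dnajc10 to 0.33 for Dnajc25, with -0.06 for Dnajc1, which sits at ribosomes on the ER, 0.14 for Dnajb9 (ERdj4) and 0.23 for Hspa13. By limma 0 of the 8 reached an unadjusted p under 0.05, beside 14.5% higher and 12.8% lower among all genes. The methods' t-test called 0.

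In the promoters of this class, the ER stress element, CCAAT and CCACG with 9 bases between them, searched on both strands, was found in 3 of 7 genes and in 0.130% of all genes. It is shown because its 3 carriers were not called in the pooled comparison, although Dnajc3 was called within PyMT and between PyMT BrM and EO771 BrM. Capitals mark its whole span on the gene's strand (GRCm38.p6), and Hsp90b1 held another in the opposite orientation.
Hspa5, chr2:34772025-34772043, plus strand: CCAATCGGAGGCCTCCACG
Hsp90b1, chr10:86705638-86705656, minus strand: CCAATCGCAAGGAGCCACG
Dnajc3, chr14:118937827-118937845, plus strand: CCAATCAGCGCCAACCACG

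Among 21 other genes of the unfolded protein response, 3 were higher in BrM and 1 was lower, beside 4.89% and 4.13% of all genes. Their median difference was 0.36. Calr, the calcium-binding lectin chaperone calreticulin, had 1.95 (SE 0.38, adjusted p = 0.00254), Edem1, which extracts misfolded glycoproteins, 1.23 (SE 0.23, adjusted p = 0.00149), and Pdia3, a disulfide isomerase that works with calreticulin, 1.05 (SE 0.20, adjusted p = 0.00228). The stress sensor gene Eif2ak3 (PERK) was lower, with -1.28 (SE 0.23, adjusted p = 0.00141). With all probes of a gene averaged, Edem1 and Eif2ak3 had 0.31 and -0.44 and were not called (adjusted p = 0.245 and 0.258), and against spleen alone Calr and Eif2ak3 were not (1.59 and -1.04, adjusted p = 0.0193 and 0.0199).

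Of 10 mitochondrial chaperones, 0 were higher and 1 was lower, beside 4.89% and 4.13% of all genes. Their median difference was 0.44. Dnajc28, a mitochondrial J-domain protein, gave 5.74, 5.09, 5.55 and 5.94 in PyMT BrM and 4.16 and 4.51 in EO771 BrM, against 5.77 to 6.51 in PyMT controls and 6.34 to 7.06 in naïve controls. In 5 of 6 BrM arrays it was below all controls (-1.25, SE 0.28, adjusted p = 0.00594). The call was lost without PyMT BrM 2, PyMT spleen 1 or 2, EO771 BrM 1 or 2, naïve spleen 2 or either naïve bone marrow (adjusted p from 0.0105 to 0.0176), as it was against spleen or bone marrow alone (adjusted p = 0.0389 and 0.0561). A dimmer probe had 0.15 (adjusted p = 0.745), and with both probes averaged Dnajc28 had -0.55 (adjusted p = 0.0625).

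Hspd1, the mitochondrial chaperonin Hsp60, had a difference of 0.46 (SE 0.25, adjusted p = 0.301) at its main probe, where BrM and controls overlapped. Its second probe gave 7.79, 7.72, 8.18 and 6.94 in PyMT BrM and 7.46 and 7.57 in EO771 BrM, and 5.73 to 6.43 in the controls, with no overlap (1.62, SE 0.20, adjusted p = 4.64e-05), and with its probes averaged Hspd1 was called (1.04, adjusted p = 8.63e-04). Its partner Hspe1 (Hsp10), which shares the promoter run shown above, had 0.50 (SE 0.33, adjusted p = 0.431). Dnajc15 and Dnajc19, which act at the protein import channel of the inner membrane, were above all controls in all 6 BrM arrays without being called (0.81 and 0.54, adjusted p = 0.0223 and 0.0402). The margins were narrow. For Dnajc15, the lowest BrM array had 10.364 and the highest control 10.362, and for Dnajc19 these were 10.61 and 10.55. Dnajc15 was called without naïve spleen 2 (adjusted p = 0.00925). Hspa9 (mortalin), the mitochondrial Hsp70, had 0.79 (adjusted p = 0.136).

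Of the 20 remaining members, 4 were higher and 1 was lower (20% and 5%), beside 4.89% and 4.13% of all genes. This class holds the other J-domain and Hsp70 family members, together with the binding proteins Hspbp1 and Hspbap1. Dnajc12, a cochaperone of the aromatic amino acid hydroxylases, gave 7.05, 6.40, 6.62 and 7.52 in PyMT BrM and 6.09 and 5.77 in EO771 BrM, against 4.10 to 5.51 in PyMT controls and 4.74 to 4.91 in naïve controls. No control reached the lowest BrM (1.74, SE 0.28, adjusted p = 4.46e-04), a second probe gave 1.55 (adjusted p = 2.45e-05), and the remaining, dim probe gave -0.33 (adjusted p = 0.682). Dnajc12 was not called against bone marrow alone (1.48, adjusted p = 0.0211).

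Dnajc24, which takes part in the synthesis of diphthamide on elongation factor 2, was the steadiest of the called members. It gave 8.11, 7.94, 8.02 and 8.03 in PyMT BrM and 8.44 and 8.34 in EO771 BrM, and 6.55 to 7.31 in the controls. The difference of 1.14 (SE 0.16, adjusted p = 1.61e-04) exceeded the spread within either group, which was 0.20 in BrM and 0.24 in controls (SD). A dim probe of Dnajc24 had 0.05 (adjusted p = 0.936).

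Dnajc18 gave 5.39, 5.21, 4.90 and 5.45 in PyMT BrM and 5.02 and 5.21 in EO771 BrM, and 3.51 to 4.38 in the controls, again without overlap (1.16, SE 0.17, adjusted p = 2.18e-04). Hspbp1, which releases nucleotide from Hsp70 and inhibits its cycle, gave 7.43, 7.62, 7.84 and 7.23 in PyMT BrM, all above the controls at 5.60 to 6.96, but 6.91 and 6.85 in EO771 BrM (1.04, SE 0.23, adjusted p = 0.00651). The Hspbp1 call was lost without any 1 of the PyMT BrM, PyMT spleen 1 or 2, PyMT bone marrow 1 or either naïve bone marrow (adjusted p from 0.0101 to 0.0200), or against spleen alone (0.85, adjusted p = 0.0494).

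Dnajc6 (auxilin), which recruits Hsc70 to clathrin-coated vesicles, was the member with the largest fall. It gave 4.09, 4.48, 4.35 and 4.91 in PyMT BrM and 3.38 and 3.81 in EO771 BrM. In the controls it gave 5.71, 7.10 and 6.50 in PyMT spleen, 7.15 in PyMT bone marrow, 5.16 and 4.52 in naïve spleen, and 6.27 and 6.00 in naïve bone marrow. Of 6 BrM arrays, 5 were below all controls, since naïve spleen 2 was low (-1.88, SE 0.38, adjusted p = 0.00319). Further probes had -2.15 and -0.47 (adjusted p = 0.0327 and 0.548). Dnajc6 was not called against spleen alone (-1.63, adjusted p = 0.0307) or with its probes averaged (-1.50, adjusted p = 0.0122). Dnajb13, a J-domain protein of cilia and flagella, had -1.52 (SE 0.37, adjusted p = 0.0113) and was called without PyMT spleen 2 or either naïve bone marrow (adjusted p = 0.00389, 0.0087 and 0.00768).

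Within the models, the PyMT comparison set 4 BrM against 4 spleen/bone marrow arrays of tumor-bearing mice, whereas in EO771 the 2 BrM were set against 4 arrays of naïve mice. In the PyMT comparison 7 members were higher and 1 lower, beside 3.77% and 2.42% of all genes. In the EO771 comparison 3 were higher and 1 lower, beside 2.59% and 1.68% of all genes. Only Dnajc24 was called higher in both (1.11 in PyMT, adjusted p = 0.00167, and 1.29 in EO771, adjusted p = 0.00294), and in EO771 it was no longer called without either EO771 BrM or naïve bone marrow 2 (adjusted p from 0.0103 to 0.0566).

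Hspa1a had 3.50 (SE 0.79, adjusted p = 0.0110) in PyMT and 3.84 (SE 0.96, adjusted p = 0.0274) in EO771, and was called in neither alone. Hspa1b had 3.26 (SE 0.62, adjusted p = 0.00427) in PyMT and 2.25 (SE 0.76, adjusted p = 0.111) in EO771, and Hspb1 had 1.70 (SE 0.30, adjusted p = 0.00254) in PyMT and 1.46 (SE 0.37, adjusted p = 0.0292) in EO771. The differences between the models did not pass the test for Hspa1a, Hspa1b or Hspb1 (-0.34, SE 1.24; 1.01, SE 0.99; and 0.25, SE 0.48). Of 8 heat-inducible genes, limma called 0 in EO771, and 3 were higher at an unadjusted p under 0.05 (10.3% of all genes). In PyMT, Dnajc12 (2.05, adjusted p = 9.58e-04) and Dnajc18 (1.33, adjusted p = 0.00106) were higher and Dnajc6 was lower (-2.16, adjusted p = 0.0032).

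Several PyMT calls depended on single arrays. Hspa1b was not called without PyMT BrM 2 or 3, PyMT spleen 1 or the PyMT bone marrow (adjusted p from 0.0111 to 0.0150), Hspb1 without PyMT BrM 4 (adjusted p = 0.0101), and Dnajc6 without PyMT BrM 1, 2 or 3, PyMT spleen 2 or the PyMT bone marrow (adjusted p from 0.0105 to 0.0130). With all probes of a gene averaged, Hspa1b (1.82), Hspb1 (0.90), Dnajc24 (0.68), Dnajc3, Dnajc6 and Hsp90aa1 were not called in PyMT (adjusted p from 0.0130 to 0.564), nor Dnajc24 (0.52) and Dnajc28 (-1.08) in EO771 (adjusted p = 0.199 and 0.0151). Arrays with the same mouse code did not deviate together, which cannot show that they came from separate mice. A fixed block by that code in the 8 PyMT arrays left 0 members called. The share of all genes called in that fit was not computed, so this count is not read as particular to the members.

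**Figure D4:**
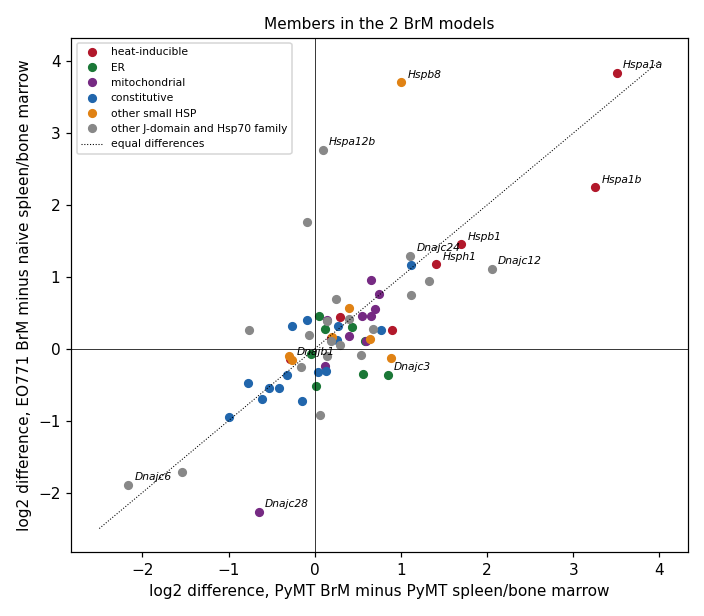
Log2 difference of each of the 68 genes in PyMT (x axis, PyMT BrM minus PyMT spleen/bone marrow) and in EO771 (y axis, EO771 BrM minus naïve spleen/bone marrow), with colours for classes and a dotted line for equal differences. Hspa1a and Hspb1 lie near that line, whereas Hspb8 (1.00 and 3.71) and Hspa12b (0.09 and 2.77) lie above it and Dnajc28 (-0.65 and -2.27) below it.

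Hspb8, a small heat shock protein that works with Bag3 in selective autophagy, was the only member whose difference depended on the model by test. It gave 5.02, 5.35, 5.25 and 5.98 in PyMT BrM, against 4.04, 4.85 and 4.17 in PyMT spleen and 4.52 in PyMT bone marrow. It gave 8.43 and 8.08 in EO771 BrM, against 4.63 and 4.67 in naïve spleen and 4.54 and 4.35 in naïve bone marrow. Hence BrM were above the controls in both models, and the EO771 BrM stood above all other arrays. The difference was 1.00 (SE 0.24, adjusted p = 0.0168) in PyMT and 3.71 (SE 0.30, adjusted p = 6.59e-06) in EO771, and the PyMT minus EO771 difference of these was -2.70 (SE 0.38, adjusted p = 0.00715). Over all genes, 0.168% were called in that test, and among the members 0 others.

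The test for Hspb8 was no longer passed without any of 12 arrays in turn, that is all but PyMT BrM 4 and PyMT spleen 1 (adjusted p from 0.0114 to 0.0762). A dimmer probe of Hspb8 gave 1.46 to 4.27 in PyMT BrM and 5.47 and 5.33 in EO771 BrM, against 3.20 to 4.13 in the controls. Pooled over models, the main probe had 1.88 (SE 0.48, adjusted p = 0.0152), and it was called without PyMT BrM 1 (adjusted p = 0.00856) and with the mouse set as a block (2.08, adjusted p = 0.00174). With both probes averaged, the difference between the models was -2.49 and was not called (adjusted p = 0.0395). Of 6 epithelial markers, which cancer cells of the breast would carry, 4 were higher in PyMT BrM and 1 in EO771 BrM than in their controls, and 2 in the pooled comparison (median difference 1.44). Their list mean was 5.32 to 6.45 in PyMT BrM, 4.63 and 4.64 in EO771 BrM, and 3.56 to 4.29 in controls. Among them, the keratin gene Krt8 was above all controls in 6 of 6 BrM arrays (6.20 to 8.50 in BrM and 3.77 to 5.10 in controls), whereas the surface antigen Epcam was near background (2.53 to 3.12 in BrM and 2.41 to 3.36 in controls). The part of such cells in the Hspb8 difference was not tested.

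Hspa12b, an atypical Hsp70 known from endothelium, gave 5.42 and 5.65 in EO771 BrM, against 2.77 and 2.01 in naïve spleen and 3.49 and 2.79 in naïve bone marrow (2.77, SE 0.38, adjusted p = 4.23e-04). In PyMT BrM it gave 3.57, 4.14, 4.18 and 4.82, against 3.92 to 4.28 in PyMT controls (0.09, SE 0.31, adjusted p = 0.895). The PyMT minus EO771 difference of these was -2.68 (SE 0.49) and missed the threshold (adjusted p = 0.0309). Dnajc28 likewise had -2.27 (SE 0.30, adjusted p = 3.47e-04) in EO771 and -0.65 (SE 0.25, adjusted p = 0.116) in PyMT, with an adjusted p of 0.129 for the difference. The EO771 calls of Hspa12b and Dnajc28 were lost without EO771 BrM 2 and EO771 BrM 1, in that order (adjusted p = 0.0124 and 0.0143).

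Set directly against each other, PyMT BrM and EO771 BrM differed in 2 members, 1 higher in PyMT BrM and 1 lower, beside 0.819% and 1.12% of all genes. The lower one was Hspb8 (-2.85, SE 0.31, adjusted p = 7.08e-04), which was not called without EO771 BrM 1 (adjusted p = 0.0205). Dnajc3 was higher, with 9.23, 8.70, 9.04 and 8.99 in PyMT BrM and 7.47 and 7.48 in EO771 BrM (1.52, SE 0.23, adjusted p = 0.00374). The Dnajc3 difference was not called without PyMT BrM 4, EO771 BrM 1 or EO771 BrM 2 (adjusted p = 0.0118, 0.0598 and 0.0412), or with its probes averaged (0.83, adjusted p = 0.0714).

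Dnajc3 was also higher in PyMT BrM than in PyMT spleen/bone marrow, which gave 8.02, 8.15 and 8.44 in spleen and 7.96 in bone marrow (0.85, SE 0.18, adjusted p = 0.00832). In EO771 BrM its levels lay below the 7.73 to 7.94 of the naïve controls, without passing the test (-0.36, SE 0.22, adjusted p = 0.478). The PyMT call was kept without PyMT BrM 2 or PyMT spleen 3 and lost without any other array (adjusted p from 0.0119 to 0.0310), and the test between the models had an adjusted p of 0.125.

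Spleen and bone marrow were compared in order to see how the chaperones vary in the absence of tumor tissue. Between spleen and bone marrow, 0 members were called by limma, beside 1 of all genes (0.00525%), and 6 of 68 were higher and 4 lower at an unadjusted p under 0.05, beside 9.36% and 9.58% of all genes. Hspa1a was 1.56 higher in spleen (SE 0.79, adjusted p = 0.365) and Hsph1 0.98 (SE 0.45, adjusted p = 0.314). Against spleen alone, Hspa1a, Hspa1b and Hspb1 were still called in BrM (3.12, 2.54 and 1.60, adjusted p = 0.00503, 0.00879 and 0.00292). Against bone marrow alone they were called as well (4.73, 3.50 and 1.49, adjusted p = 0.00122, 0.00301 and 0.00481).

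PyMT spleen and naïve spleen differed in 1 member, beside 0.0787% of all genes. Hsp90aa1 gave 4.43, 4.47 and 4.75 in PyMT spleen and 6.51 and 6.44 in naïve spleen (-1.93, SE 0.26, adjusted p = 0.00853). The same split ran through BrM and bone marrow: Hsp90aa1 gave 5.94, 5.49, 5.41 and 5.21 in PyMT BrM and 4.81 in PyMT bone marrow, against 6.83 and 6.79 in EO771 BrM and 6.48 and 6.76 in naïve bone marrow. All 8 arrays of the PyMT set were below all 6 arrays of the EO771 and naïve set, whatever the tissue. Within the PyMT set, BrM were above spleen/bone marrow (0.90, SE 0.20, adjusted p = 0.00915), and within the EO771 and naïve set the difference was 0.27 (SE 0.24, adjusted p = 0.691).

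Both Hsp90aa1 calls were fragile. The PyMT call was lost without any 1 of the 14 arrays (adjusted p from 0.0112 to 0.0312), and the call between spleens was lost without any array other than PyMT spleen 2 and the PyMT bone marrow (adjusted p from 0.0115 to 0.0593). With all its probes averaged, Hsp90aa1 had 0.24 in PyMT (adjusted p = 0.564) and -0.79 between spleens (adjusted p = 0.198).

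The sets separated without overlap in 5 of 68 members (7.35%) and in 3.72% of all genes. Besides Hsp90aa1, these were Dnajb9 (6.40 to 7.82 in the PyMT set and 8.29 to 8.61 in the EO771 and naïve set), Dnaja2, a constitutive partner of Hspa8 (4.60 to 5.80 in the PyMT set and 5.94 to 6.30 in the other), Dnajc3 (7.96 to 9.23 in the PyMT set and 7.47 to 7.94 in the other) and Hspb6, a small heat shock protein of muscle (8.42 to 9.06 in the PyMT set and 7.94 to 8.32 in the other). With the mouse set as a block, 13 members were called between BrM and spleen/bone marrow, among them all 9 called without it. The share of all genes called in that fit was not computed, so the gain is not read as particular to the members. The 4 gained were Dnajc2 and Hspb8, which were higher, and Dnajc8 and Dnajb13 (-1.60, adjusted p = 0.00708), which were lower, while Hsp90aa1 had 0.65 (adjusted p = 0.0167). In that fit Hspa1a, Hspa1b and Hspb1 had 3.64, 2.85 and 1.60 (adjusted p = 5.73e-04, 8.54e-04 and 2.08e-04).

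**Figure D5:**
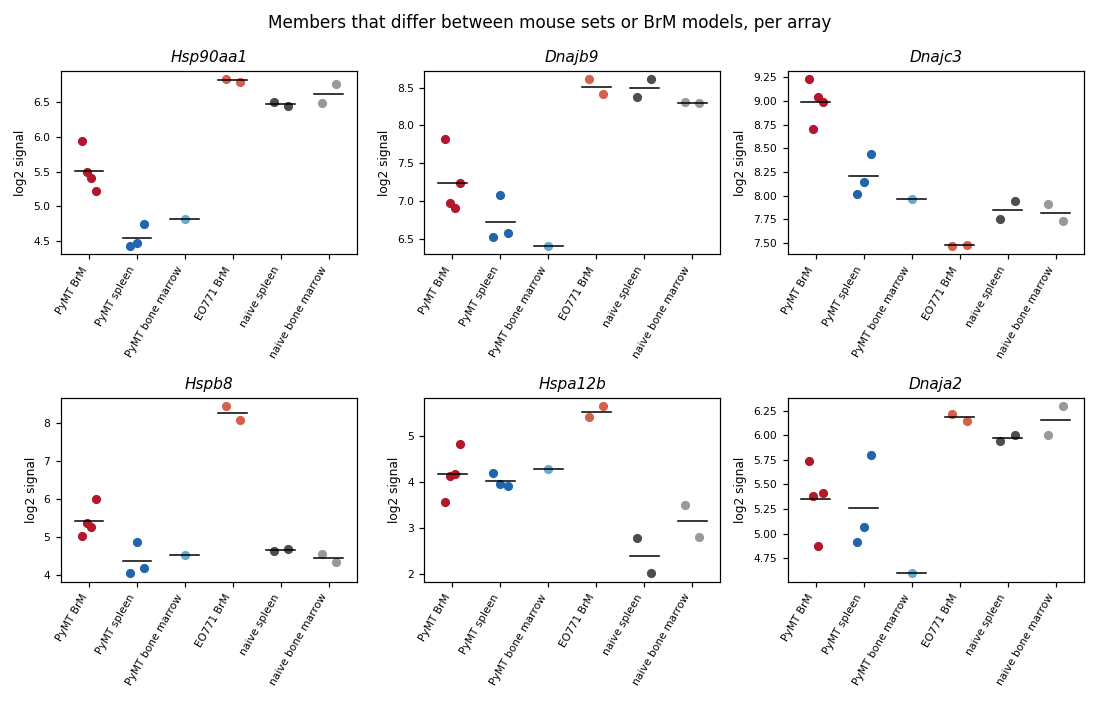
Log2 signal (y axis) of 6 genes by condition (x axis), with points for arrays and lines for condition means. Hsp90aa1, Dnajb9, Dnajc3 and Dnaja2 separate the 8 PyMT-set arrays from the 6 EO771 and naïve arrays, whereas Hspb8 and Hspa12b are highest in the 2 EO771 BrM arrays.

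The remaining 6 small heat shock proteins gave pooled differences from -0.22 to 0.52, and 0 of the 7 in the class were called by limma, with 1 higher at an unadjusted p under 0.05 and 0 called by the methods' t-test. Of the members read by more than 1 probe, 19 had a probe with the opposite sign in the pooled comparison, never with both called. The direction of a member thus rests on its main probe for Dnaja1, Dnaja3, Dnajb3, Dnajb4, Dnajb6, Dnajb8, Dnajb9, Dnajc1, Dnajc9, Dnajc10, Dnajc11, Dnajc12, Dnajc14, Dnajc19, Dnajc28, Hsp90aa1, Hspa4, Hspa13 and Hspb9. In Dnajc16, a second probe was called higher (1.12, adjusted p = 0.00648) and the main one was not (0.31, adjusted p = 0.544).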

How the data were processed

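Polyadenylated RNA of sorted GFP+CD11b+ cells was hybridized to 14 single-colour Illumina arrays. The authors corrected the deposited log2 values for background and normalized them by quantiles, with GenomeStudio 2011.1 and limma. The correction method is not given in the sources used here, no detection p-values were used, and each array had 80 values below 0, so dim probes lie near background (array median 4.06). The number of arrays limits the precision.

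Symbols came from the platform annotation: 34885 probes had 1 symbol, 18 several and 10378 none. Linear models were fitted to all 45281 probes with limma 3.58.1 in R 4.3.3 (lmFit and eBayes, no trend, two-sided tests). P-values were adjusted by Benjamini-Hochberg over every probe, and genes below 0.01, the level of the study, were called. The pooled comparison set 6 BrM against 8 spleen/bone marrow arrays. Comparisons within each model, and their difference, came from a model of 4 groups, and the other comparisons from one of 6 conditions. Differences are of group means on the log2 scale, and folds are their powers of 2. Before use, the models were tested on simulated data of this layout.

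The members, lists, classes and tests were chosen with earlier results of these data known. Named genes were all heat-inducible and ER members, of other members the called ones with the largest changes, the largest called changes of each list, and members whose probes disagree. Members named although not called (such as Hspa8, Hspd1, Dnajc2, Dnajc15, Dnajc19, Dnajb13 and Hspa12b) were chosen after their values were seen. Genes on a list for which no probe carried the symbol, among them Hsf1, Hsp90ab1, Dnajb11 and Dnaja4, were not analysed here, and some genes are not reported. Promoters are those of RefSeq (GRCm38.p6). The search for pairs of heat shock units was added after the data were seen. No protein sequences were used, and no sequence was printed for Hspa9 and Dnajc18.

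PyMT arrays share mouse codes and title numbers. Deviations from group means, BrM against spleen, correlated at -0.0443, -0.00479 and -0.0214 for the same code, so the codes were not taken to pair arrays in the main fits. Alternatives were another normalization, filter, variance model, threshold or test, averaged probes, blocks, other controls or weights, and leaving out each array.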

Additional observations from a re-analysis of the deposited data

Results flagged for a closer look

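Hspb8 was the only member whose BrM difference was tested to depend on the model. The PyMT minus EO771 difference of log2 differences was -2.70 (SE 0.38, limma adjusted p = 0.00715), with 1.00 in PyMT and 3.71 in EO771. In EO771 both BrM arrays were above all 4 naïve controls, and in PyMT all 4 BrM arrays were above all 4 controls. A test for a single outlying array was run on 33 members in PyMT BrM, the only condition with 4 or more arrays, and gave none. The other conditions had too few arrays and were not tested, and with 4 arrays such a test finds only extreme values.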

How the results depend on the processing

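Of the 59 differences of single genes, recomputed under each alternative, 1259 values kept their direction and their side of the threshold, 176 lost the call, 40 gained it and 26 changed sign. None of the 26 belonged to a called difference. Members called in the pooled comparison were 9, and 7 to 11 when each array was left out in turn. They were 18 at an adjusted p under 0.05 and 14 with the 6 conditions weighted equally. The share of all genes called was not computed for the alternatives, so changes in these counts are not read as particular to the members. In the PyMT comparison, 8 members were called, 4 to 9 with an array left out, 5 with all probes of a gene averaged and 3 with the PyMT arrays alone. In the EO771 comparison, 4 were called, 2 to 5 with an array left out, 9 at an adjusted p under 0.05 and 2 with the EO771 and naïve arrays alone. For the difference between the models, 1 was called, 0 to 1 with an array left out, 0 with probes averaged and 2 at an adjusted p under 0.05. Between spleen and bone marrow, 0 were called, and 0 to 2 with an array left out (2, Dnajc2 and Hspa9, without PyMT spleen 2). Between PyMT BrM and EO771 BrM, 2 were called, 0 to 3 with an array left out, 4 with a variance trend and robust variances, 1 with probes averaged and 6 at an adjusted p under 0.05. Between PyMT spleen and naïve spleen, 1 was called, 0 to 1 with an array left out, 2 with a filter on dim probes or with trend and robust variances, 0 with probes averaged and 3 at an adjusted p under 0.05.

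With a replicate block by mouse code as a random term, 10 members were called in the pooled and 7 in the PyMT comparison. With a replicate block by title number in the 8 PyMT arrays, 0 were called in either comparison, and with a fixed replicate block by mouse code, chosen after seeing the data, 0 in the PyMT comparison. The numbers share no stated origin: same-numbered BrM and spleen deviations correlated at 0.0134, -0.00479 and 0.0530, and not every BrM correlated best with the spleen of its number.

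Most sign changes were in pooled differences near 0, but Dnajb6 (-0.50) and Hspa12b (1.20) also changed sign in 1 alternative each. With all probes averaged, Dnaja1 had -0.27, Dnajb6 0.26, Dnajc1 0.0568, Dnajc10 0.00619 and Hsp90aa1 -0.00982. Against bone marrow only, Dnaja1 had -0.24, Dnajb9 -0.00880, Dnajc1 0.00253, Hsp90aa1 -0.0702 and Hsf2 -0.0298. With the title-number block Hspa12b had -0.13, in a fit of the PyMT arrays only, without the EO771 BrM. With an array left out, Dnaja1 ran from -0.12 to 0.21, Dnajb9 from -0.0530 to 0.29, Dnajc1 from -0.17 to 0.0263, Hspa5 from -0.0132 to 0.20 and Hsf2 from -0.0764 to 0.24. The cause was not tested. Signals of Hspa5, Dnaja1, Dnajb4 and Hspa12b, and those of Hspa1a, Hspa1b and Hspb1 in the controls, lay near the array median, where background limits a fold.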
